A study of Mus musculus with 16 samples.

Results

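Levels of 6 genes of the basic helix-loop-helix (bHLH) family were followed in CD4 T cells of helminth-infected mice: the ID genes *Id2* and *Id3*, the E protein genes *Tcf3* and *Tcf12*, and *Ascl2* and *Bhlhe40*. The 6 genes were taken by symbol from the 30406 genes that all matrices have in common, and were chosen by name with the difference of *Id3* between lung and MLN in these data already known. Since the genes and lists were chosen with earlier results of these data known, every count of members that passed is a description. The same holds for every p-value of a member, between organs, gates or split cells. Neither is independent support. The animals were IL-4eGFP reporter (4get/C57BL/6) mice, in which a green fluorescent protein reports transcription of *Il4*, and every sample came from day 10 after infection with *Nippostrongylus brasiliensis* (Nb), so no uninfected mouse is among the samples. In the first run, CD4+IL-4eGFP+ cells were sorted from the perfused lung and from the mesenteric lymph node (MLN) of 2 mice aged 13 weeks, with a library for each organ and mouse. In the second run, cells came from the lung-draining mediastinal lymph node (medLN) and the MLN of 2 other mice, aged 10 weeks. They were labelled with hashtag antibodies, sorted into gates of IL-4eGFP+ and of IL-4eGFP- cells, and pooled within each gate. Each gate was a single library, so the gate and the library cannot be told apart. Some intravascular cells remain in a perfused lung by the study's account, and the reporter marks *Il4* transcription, not secreted cytokine.

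E proteins are transcription factors that bind E-box sequences as dimers through their basic region. ID proteins carry the helix-loop-helix dimerization domain but lack the basic region, so they form dimers with E proteins that do not bind DNA. In CD4 T cells, *Id2* is known for effector and Th1 programs and *Id3* for naive, memory, follicular helper (Tfh) and regulatory T (Treg) cells, while ASCL2 is known as an activator of *Cxcr5* in Tfh cells and BHLHE40 as a regulator of cytokine genes in activated T cells.

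The promoters of *Id2* and *Ascl2* are shown because these genes moved in opposite directions between the cells with and without Tfh transcripts described below. The sequences are from RefSeq (GRCm38.p6), run 5′ to 3′ on the gene's strand and leave out exons of the GENCODE annotation. Capitals mark the E-box pattern CANNTG, which E protein and other bHLH dimers recognize. That of *Id2* is chr12:25096254-25096342 on the minus strand, from 250 to 162 bases before the RefSeq transcript start, and that of *Ascl2* is chr7:142969265-142969514 on the minus strand, the 250 bases before the start.
Id2: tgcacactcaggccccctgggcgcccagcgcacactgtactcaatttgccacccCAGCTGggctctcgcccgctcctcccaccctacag
Ascl2: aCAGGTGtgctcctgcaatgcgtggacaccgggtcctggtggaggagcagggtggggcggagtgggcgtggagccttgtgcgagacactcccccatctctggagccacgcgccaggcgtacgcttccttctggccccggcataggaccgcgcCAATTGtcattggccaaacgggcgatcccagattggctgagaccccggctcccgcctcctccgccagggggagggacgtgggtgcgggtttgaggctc

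The *Id2* promoter held 1 match to CANNTG in the 250 bases before the start, CAGCTG at 196 bases before it. *Ascl2* held 2 matches, CAGGTG at 249 and CAATTG at 98 bases before the start, and *Id3* held 0. GENCODE transcripts of *Id2* and *Id3* that start further upstream cover these stretches: 161 of the 250 bases of *Id2* and all 250 of *Id3* lie in their exons, and the printed *Id2* bases lie in an intron of the longest *Id2* transcript. CANNTG was found on either strand in 66.2% of the 32851 promoters of this length, CAGCTG in 13% and CAGGTG or its reverse complement CACCTG in 17.2%; the last 3 are forms of CANNTG. A match to CANNTG is therefore common, and a match is a description of letters, not of binding. RefSeq promoters were found for 5 of the 6 genes, the exception being *Bhlhe40*.

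In GRCm38, *Id2* lies at chr12:25093799-25097140 (minus strand), *Id3* at chr4:136143497-136145755 (plus), *Tcf3* at chr10:80409514-80433647 (minus), *Tcf12* at chr9:71842688-72111871 (minus), *Ascl2* at chr7:142966829-142969264 (minus) and *Bhlhe40* at chr6:108660629-108666925 (plus). Among the 6, only *Bhlhe40* overlaps another counted gene, 0610040F04Rik on the opposite strand.

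After filtering, 4714 cells of the first run and 16748 cells of the second were used, between 416 and 2462 cells a sample. Unique molecular identifiers (UMIs), which count captured RNA molecules, summed to between 2798232 and 14512767 a sample, with a median of 3165.5 to 6910 UMIs per cell. Levels below are UMIs of a gene per 1000000 UMIs of the sample outside T cell receptor genes (CPM). As a check of the labels, the summed level of 5 CD4 T cell markers was between 3717 and 5237 CPM. That of *Il4*, *Gata3* and *Stat6* was between 378 and 1339 CPM in the IL-4eGFP+ samples of both runs. In the IL-4eGFP- samples this sum was 88.3 to 107 CPM. *Stat6* alone went the other way in the second run, with 45.8 to 53.1 CPM in the IL-4eGFP+ samples against 53.2 to 64.2 CPM. Markers of other cells were low but moved with some groups: 5 B cell markers summed to 93.7 and 127 CPM in lung and to between 148 and 264 CPM in the nodes, 6 myeloid markers to 2.47 and 1.79 CPM in lung (4 and 5 of the 6 at 0) and to between 5.19 and 111 CPM in the nodes, 3 basophil markers to 29.8 and 12.5 CPM in lung and at most 7.46 CPM in the nodes, and 4 exocrine pancreas markers reached 66.9 CPM in MLN of mouse 2 of the first run. Their part in the results was not tested.

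The first comparison set lung against MLN for IL-4eGFP+ cells of the same 2 mice. The ID genes differed between these organs in opposite directions. *Id2* was at 341 and 502 CPM in lung and at 185 and 240 CPM in MLN, whereas *Id3* was at 10.1 and 15.4 CPM in lung and at 353 and 361 CPM in MLN. Neither gene's values overlapped between the organs. With 2 samples a group this can occur without a difference. The share of all genes without overlap was not counted, in this or any later comparison. The share with 1 direction in every sample was counted only for cells with *Id2* or *Id3* alone. Because *Id3* was known to separate the organs when the genes were chosen, the members are given here without a test: the fitted log2 fold change of lung over MLN was 1.11 ± 0.17 (SE, n = 2 per organ) for *Id2* and -4.75 ± 0.16 for *Id3*. A lower sum in a sample cannot tell fewer expressing cells from less RNA per cell. The share of cells with at least 1 UMI was therefore also counted: *Id3* was found in 6.47% and 7.69% of lung cells and in 60.4% and 58.9% of MLN cells, and *Id2* in 73.5% and 76.7% of lung cells and in 31.6% and 37.5% of MLN cells.

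*Bhlhe40* had the largest rise of the 6 genes in lung. Its level was 405 and 317 CPM in lung and 18.0 and 19.5 CPM in MLN, a log2 fold change of 4.43 ± 0.19, and single lung cells held up to 43 UMIs. *Ascl2* showed the opposite extreme, with 1 UMI and 0 UMIs in the 2 lung samples against 109 and 54 UMIs in MLN, or 7.55 and 12.1 CPM. The organs did not overlap, a description with no share over all genes beside it. In lung of mouse 2, 0 of 416 cells had a UMI, which allows a share of cells with a UMI of up to 0.883% (exact binomial 95% limit). Pooled over mice, the MLN level of *Ascl2* was 97.3 times that of lung, with an exact 95% counting interval from 17.2 to 3865 that does not include variation between mice. *Tcf12*, which encodes the E protein HEB, was at 40.8 and 40.9 CPM in lung and 65.2 and 64.9 CPM in MLN (log2 fold change -0.53 ± 0.12). *Tcf3* was at 71.3 and 74.6 CPM in lung and 76.2 and 76.4 CPM in MLN. Its fitted difference of 0.07 ± 0.11 was smaller than its error and had the opposite sign to the CPM values. The fit scales samples by TMM normalization, which CPM does not. Across all genes tested in this contrast, 31% passed an adjusted p of 0.05, and no reading is made of the members against that share.

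**Figure D1:**
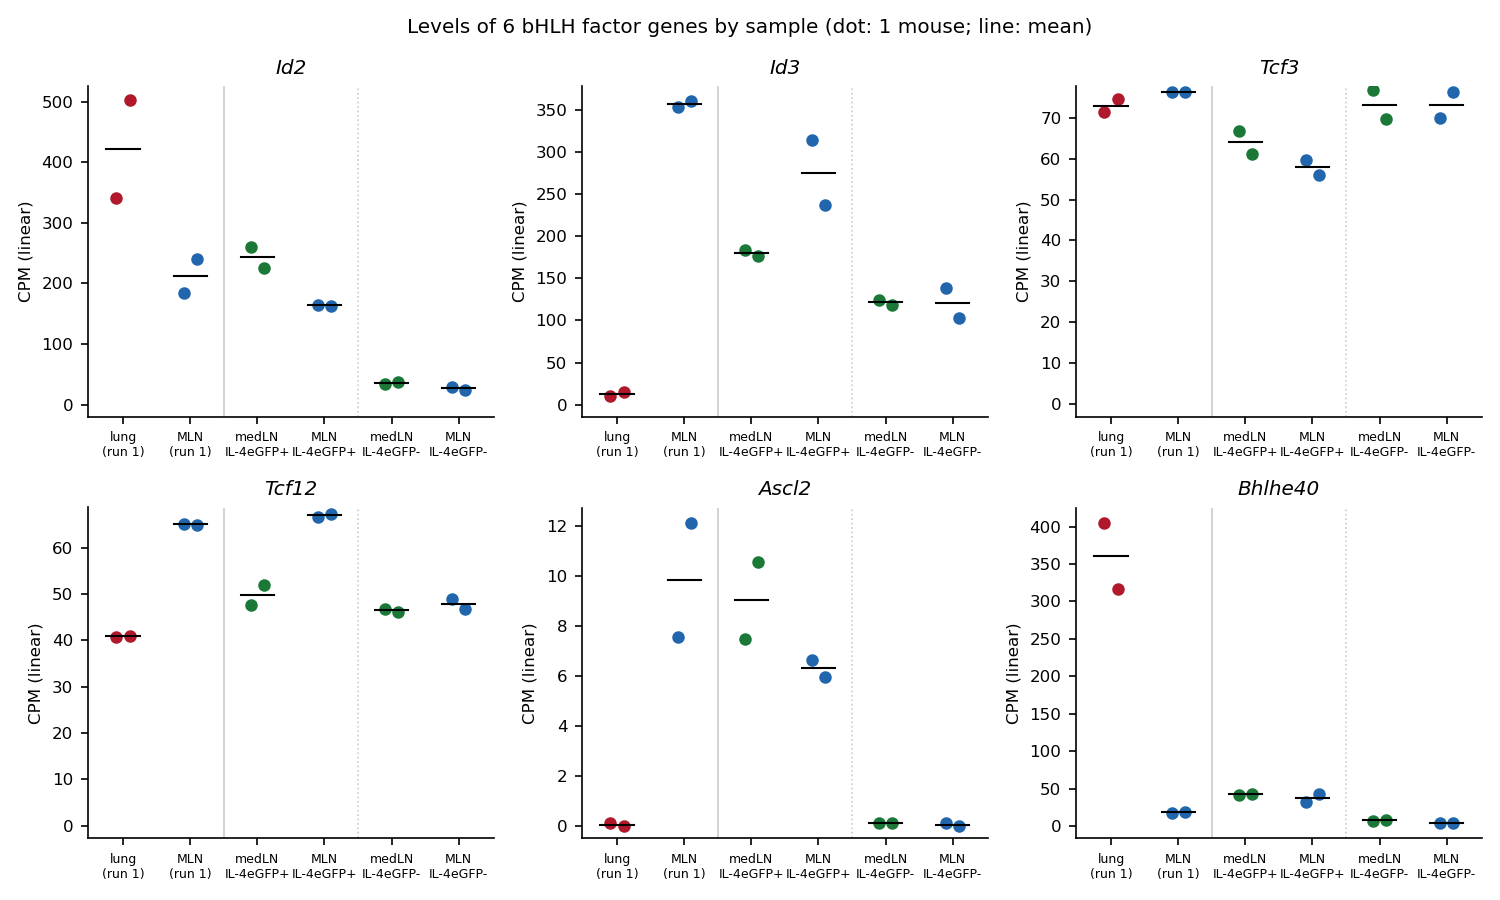
CPM of each gene on a linear axis in 12 samples, in pairs of 2 mice by organ, run and gate; each dot is a sample and the black line is the mean of the pair. *Id3* is near 0 only in lung, *Bhlhe40* is at 317 CPM or more only in lung, *Ascl2* is near 0 in lung and in all IL-4eGFP- samples, and *Tcf3* stays between 56.1 and 76.7 CPM throughout.

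T cell clones found in both organs were also read. Their cells are part of the lung and MLN samples above, so they are no independent support. In mouse 1, 105 clonotypes had cells in both organs, and their *Id3* level was 9.48 CPM in 142 lung cells and 291 CPM in 186 MLN cells, while *Id2* was at 276 and 238 CPM, closer together than in all cells (341 and 185 CPM). In mouse 2, 21 shared clonotypes had *Id3* at 23.5 CPM in 32 lung cells (6 UMIs) and at 244 CPM in 22 MLN cells (32 UMIs), and *Id2* at 474 and 252 CPM. *Bhlhe40* in the shared clones was at 354 CPM in lung and 35.8 CPM in MLN of mouse 1, and at 360 CPM and 15.3 CPM in mouse 2. The last value rests on 2 UMIs, and the clones were compared without a test.

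Genes around the ID and E proteins were also read in lung against MLN. Of all genes tested there 31% passed, and the list counts below are descriptions. Of 30 other HLH factors tested, 9 were higher and 3 lower in lung by edgeR (median log2 fold change 0.24, against -0.01 for all genes tested). The dioxin receptor gene *Ahr* rose by 1.56 ± 0.17, *Hif1a*, the oxygen-sensing factor, by 1.04 ± 0.17 and the MAX partner *Mxd1* by 3.29 ± 0.29 on the log2 scale (4.06 without MLN of mouse 1). *Max* itself was lower at -0.49 ± 0.11, a call lost without MLN of mouse 1 (adjusted p = 0.0989). Among 7 tested genes linked to E and ID proteins in T cells, the IL-7 receptor gene *Il7r* was higher by 2.48 ± 0.24, whereas *Cxcr5*, the B cell follicle homing receptor, was lower at -4.58 ± 0.26 (-5.90 without lung of mouse 1) and *Bcl6*, the repressor required for Tfh cells, at -1.24 ± 0.15; the other 4 did not pass. The E protein partners *Gata3* and *Runx1* were higher (2.03 ± 0.13 and 1.02 ± 0.12) and the LIM-only factor gene *Lmo4* lower (-1.17 ± 0.13), with 3 higher and 1 lower of 8. Of 4 genes linked to ASCL2, 3 were higher in lung, *Selplg* (1.32 ± 0.12), *Ccr7* (1.15 ± 0.12) and *Cxcr4* (1.05 ± 0.17). The remaining gene was *Cxcr5*, lower as given above. Of 13 tested genes of TGF beta and BMP signaling with the EGR factors, 6 were higher, led by *Smad7* (3.25 ± 0.20) and *Skil* (2.75 ± 0.17), both inhibitors of SMAD signaling, and 1 was lower, *Egr2* (-1.48 ± 0.20), a T cell receptor-induced factor. Of 3 cytokine genes linked to BHLHE40, *Il10* (3.62 ± 0.57) and *Ifng* were higher, the latter named after its value was seen, and *Csf2* did not pass. The *Il10* difference was 2.28 without lung of mouse 1 and 5.02 without MLN of mouse 1.

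The second comparison set medLN against MLN in 2 other mice, for the IL-4eGFP+ gate. Here too the ID genes changed in opposite directions, by less than between lung and MLN. *Id2* was at 260 and 226 CPM in medLN and 165 and 162 CPM in MLN, and *Id3* at 183 and 177 CPM in medLN and 314 and 236 CPM in MLN. The values of neither gene overlapped between the nodes, where the share of all genes without overlap was again not counted. *Id2* rose in medLN by 0.56 ± 0.08 on the log2 scale (edgeR adjusted p = 0.0137), and *Id3* was lower at -0.62 ± 0.11 (adjusted p = 0.0382). *Tcf12* was at 47.5 and 51.9 CPM in medLN and 66.6 and 67.3 CPM in MLN, with a log2 fold change of -0.44 ± 0.07 (adjusted p = 0.0331). Of the 6 members 3 passed, where 1.28% of all genes did. The members were chosen with earlier results of these data known, so this count and these p-values are descriptions. *Tcf3*, *Ascl2* and *Bhlhe40* had log2 fold changes of 0.14 ± 0.08, 0.51 ± 0.21 and 0.17 ± 0.14 that did not pass. The calls of *Id2* and *Id3* were lost without medLN of mouse 1 (adjusted p = 0.137 and 0.24), that of *Id3* also without medLN of mouse 2 (0.371), and that of *Tcf12* without medLN of mouse 1 (0.225), medLN of mouse 2 (0.108) or MLN of mouse 2 (0.0827). Without the filter on low counts all 3 calls were lost (*Id2* 0.0543, *Id3* 0.117, *Tcf12* 0.108), and that of *Tcf12* was also lost after thinning to 2000 UMIs a cell (0.26), under DESeq2 (0.135) and when cells were assigned to the hashtag with most UMIs (0.0502). Each of the 3 kept its direction in all of these.

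Among the listed genes, 2 passed between the nodes in this gate, where 1.28% of all genes did. Both were higher in medLN: *Ccr7*, the lymph node homing receptor (0.71 ± 0.07, edgeR adjusted p = 0.00396), and *Il7r* (0.59 ± 0.10, adjusted p = 0.0329). The call of *Ccr7* was lost without medLN of mouse 1 (0.0522), and that of *Il7r* without medLN of mouse 1 (0.186), without MLN of mouse 2 (0.109) and without the filter on low counts (0.109). By edgeR, no gene passed among 31 other HLH factors, 9 E protein partners and 14 TGF beta, BMP and EGR genes.

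In the IL-4eGFP- gate of the same nodes the levels were close. *Id3* was at 125 and 118 CPM in medLN and 139 and 103 CPM in MLN, and the groups overlapped. *Id2* was at 34.4 and 37.0 CPM in medLN and 29.6 and 24.3 CPM in MLN, with a log2 fold change of 0.35 ± 0.10 (adjusted p = 0.497). *Bhlhe40* was at 7.53 and 8.64 CPM in medLN and 4.72 and 4.45 CPM in MLN (0.76 ± 0.22, adjusted p = 0.447). No member passed among 5 tested, where 0.178% of all genes did. An unadjusted edgeR p under 0.05 was found for 2 of the 5, *Id2* and *Bhlhe40*, and for 666 of the 10684 genes tested. *Id2* passed without MLN of mouse 1 (0.48, adjusted p = 0.0341). With the mouse as a block 65 genes passed instead of 19, and still no member did.

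A test of whether the node difference itself differed between the gates called none of the 6 genes, where 0.156% of all genes passed. *Id3* had a difference of log2 fold changes of -0.56 ± 0.18 (adjusted p = 0.501), *Tcf12* of -0.34 ± 0.10 (0.465) and *Id2* of 0.22 ± 0.14 (0.820). With the hashtag sample as a block, a fit added after seeing the data, *Id3* passed at -0.57 (adjusted p = 0.00216) while the other 5 did not.

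The reporter gates were compared over the 4 hashtag samples, which are medLN and MLN of 2 mice. The fit had the organ as a covariate and no term for the mouse. Its errors and p-values rest on 2 mice and do not measure spread between libraries. In this comparison 4 genes passed as higher in IL-4eGFP+ cells, and each had a higher level there in every sample. How many of all genes did so was not counted, and 63% of all genes passed. *Id2* was between 162 and 260 CPM in the IL-4eGFP+ samples and between 24.3 and 37.0 CPM in the IL-4eGFP- samples, higher by 2.49 ± 0.07 on the log2 scale (edgeR adjusted p = 9.2e-11). *Bhlhe40* was at 42.2, 43.5, 31.8 and 43.3 CPM against 7.53, 8.64, 4.72 and 4.45 CPM (2.49 ± 0.14, adjusted p = 1.83e-08). *Id3* was higher by a smaller amount, 0.68 ± 0.12 (adjusted p = 0.000329), with all IL-4eGFP+ samples above all IL-4eGFP- samples. *Ascl2* had 71, 100, 61 and 63 UMIs in the IL-4eGFP+ samples and 1, 1, 1 and 0 UMIs in the IL-4eGFP- samples. The ratio of its pooled levels was 79.1, with an exact 95% counting interval from 26.8 to 386. Its fitted change also passed (edgeR adjusted p = 2.74e-08), but *Ascl2* met the filter on low counts only through the IL-4eGFP+ samples. Within the IL-4eGFP- gate it was not tested, so this p-value adds no support.

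Neither E protein gene passed as higher in IL-4eGFP+ cells. *Tcf3* was lower in IL-4eGFP+ cells, at 66.8, 61.1, 59.6 and 56.1 CPM against 76.7, 69.6, 70.0 and 76.2 CPM (-0.46 ± 0.06, edgeR adjusted p = 3.3e-05). *Tcf12* was at 47.5, 51.9, 66.6 and 67.3 CPM against 46.8, 46.1, 49.0 and 46.7 CPM, and did not pass (0.10 ± 0.07, adjusted p = 0.226), but it passed after thinning (0.30, adjusted p = 0.00424). In the MLN samples alone *Tcf12* was higher in IL-4eGFP+ cells (0.27, adjusted p = 0.0113), and in the medLN samples alone its fitted change was -0.07 (adjusted p = 0.47). Its CPM was higher in the IL-4eGFP+ gate in each hashtag sample, those of medLN included. The fit also scales samples by TMM normalization, which CPM does not, so fitted changes can differ from CPM ratios. In all, 5 of 6 members passed where 63% of all genes did, so the count itself is near what most genes show.

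Of all genes tested between the gates 63% passed, so the list counts that follow are descriptions. Of 29 other HLH factors in the gate comparison, 5 were higher and 15 lower in IL-4eGFP+ cells (median log2 fold change -0.17, against -0.02 over all genes). *Epas1*, which encodes the hypoxia factor HIF-2 alpha, rose by 3.20 ± 0.12, *Ahr* by 2.30 ± 0.12, and *Mxd3* by 2.28 ± 0.16. The growth factor-induced gene *Myc* was lower (-1.74 ± 0.07), as were *Mxd1* (-1.999 ± 0.15) and *Tfap4* (-1.10 ± 0.09). All 8 tested genes linked to E and ID proteins passed, 4 in each direction: *Cxcr5* (3.25 ± 0.14), *Bcl6* (1.35 ± 0.12) and *Gfi1* (1.06 ± 0.11) were among those higher, and *Sox4* (-3.54 ± 0.19), *Il7r* (-1.55 ± 0.12) and *Socs3* (-1.31 ± 0.22) among those lower. Of 14 genes of TGF beta and BMP signaling with the EGR factors, 4 were higher, *Egr2* with 0.94 ± 0.11, and 7 lower, *Smad7* with -2.74 ± 0.14 and the receptor gene *Tgfbr1* with -1.06 ± 0.08.

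Within a sample, *Id2* and *Id3* were then compared cell by cell. UMIs count molecules but capture can differ between genes, so the share of *Id2* among the UMIs of both genes is used only to set samples beside each other. This share was 97.1% and 97.0% in lung and 34.4% and 39.9% in MLN of the first run. In the second run it was 58.7% and 56.1% in medLN and 34.5% and 40.7% in MLN for IL-4eGFP+ cells, and between 17.6% and 23.8% for IL-4eGFP- cells. The MLN shares of both runs overlapped, medLN stood between MLN and lung, and the IL-4eGFP- cells had the lowest shares. When every cell was thinned to 2000 UMIs, the shares of IL-4eGFP+ cells fell to 47.7% and 47.7% in medLN and to 29.3% and 31.3% in MLN, and the order of lung, medLN, MLN and IL-4eGFP- cells stayed.

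On all UMIs, most lung cells held *Id2* UMIs alone, 68.4% (exact binomial 95% interval 65.5 to 71.2) and 70.9% (66.3 to 75.2), while 1.39% and 1.92% held *Id3* UMIs alone. Lung cells were the deepest, with medians of 6910 and 5765.5 UMIs against 4980 and 4971 in MLN of that run. After thinning to 2000 UMIs, 43.2% and 52.2% of lung cells held *Id2* alone and 55.3% and 44.9% held neither gene. The shares that follow are on all UMIs. In MLN of the first run *Id3* alone was found in 46.7% and 41.9% of cells, *Id2* alone in 17.9% and 20.6%, and both in 13.8% and 17.0%. In medLN IL-4eGFP+ cells the classes were more even, with *Id2* alone in 23.8% and 22.9%, *Id3* alone in 26.3% and 26.4%, and both in 13.9% and 10.4%. Among IL-4eGFP- cells, between 70.9% and 77.5% held neither. All these intervals cover counting error only, and no cell type in the data is known to lack these genes, so free RNA was not estimated.

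**Figure D2:**
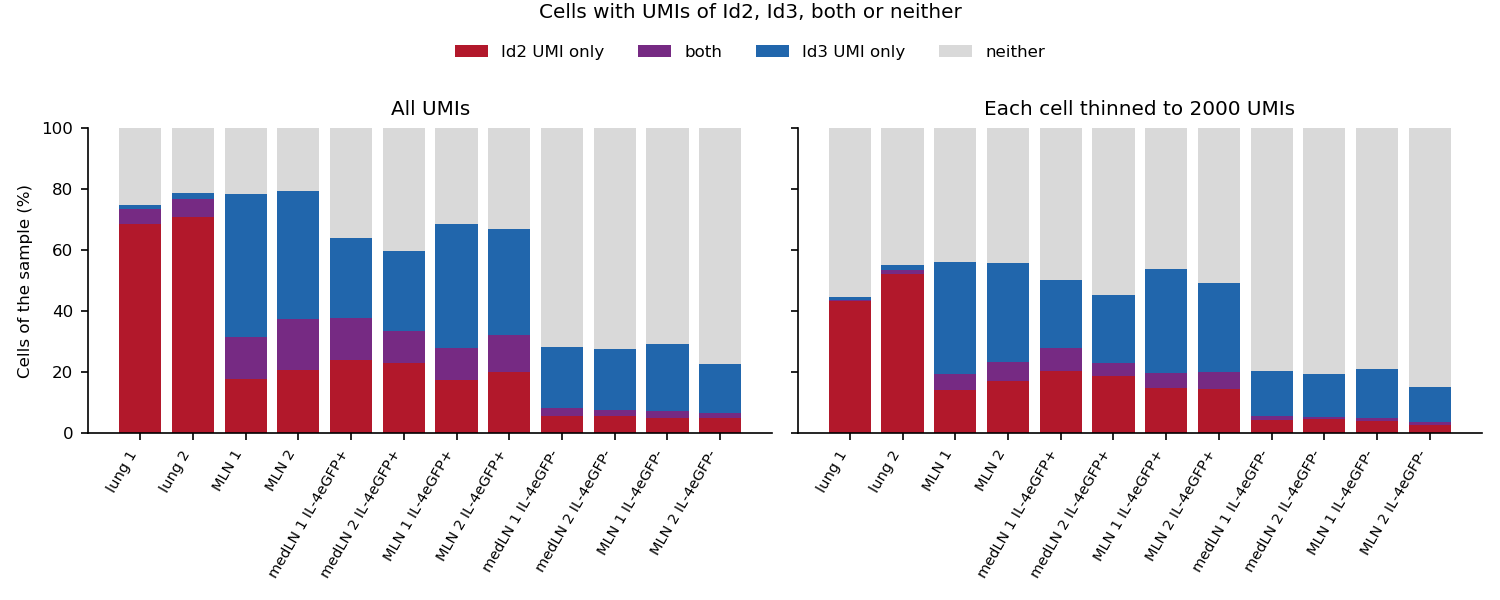
Percent of cells in each of 12 samples with UMIs of *Id2* only, of both genes, of *Id3* only or of neither, stacked to 100%, on all UMIs (left) and after thinning each cell to 2000 UMIs (right). Cells with *Id2* only fill most of the lung bars with a UMI of either gene, and cells with *Id3* only outnumber those with *Id2* only in every lymph node sample.

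In MLN, *Id3* was found in a smaller share of the cells with *Id2* than of the cells without. After thinning to 2000 UMIs, *Id3* was detected in 26.7% (22.7 to 31.0) of MLN cells with *Id2* and in 45.6% (43.4 to 47.9) of those without in mouse 1 of the first run, and in 25.6% (19.2 to 32.8) and 42.6% (38.5 to 46.7) in mouse 2. The MLN IL-4eGFP+ cells of the second run gave 25.5% against 42.5% and 27.6% against 36.3%. In medLN the differences were smaller, 26.3% (22.4 to 30.3) against 30.8% (28.3 to 33.4) in mouse 1, where the intervals overlap, and 19.3% (15.6 to 23.4) against 28.9% (26.5 to 31.4) in mouse 2. In IL-4eGFP- cells the intervals of both shares overlapped in all 4 samples, with 22.7% against 15.5%, 13.1% against 15.1%, 17.8% against 16.9% and 20.3% against 12.2%.

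Cells with *Id2* alone and cells with *Id3* alone were then described by their other transcripts in the 6 IL-4eGFP+ lymph node samples, without a test. The first group held between 155 and 490 cells a sample with medians of 4120.5 to 5753 UMIs, and the second between 316 and 1149 cells with medians of 2897 to 4912 UMIs, so the groups also differed in depth. *Bhlhe40* was higher in the *Id2* cells in all 6 samples, between 36.6 and 74.3 CPM against 5.72 to 21.8 CPM. *Tcf12* was lower there in all 6, between 37.0 and 49.8 CPM against 64.6 to 92.0 CPM. *Tcf3* was higher in 4 of 6 samples and lower in the other 2, with a mean log2 ratio of 0.07. *Ascl2* had 1 to 22 UMIs in the *Id2* cells of a sample and 14 to 58 UMIs in the *Id3* cells, and its CPM was lower in the *Id2* cells in all 6 samples.

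Some of the listed genes had 1 direction in all 6 samples, as did a large share of all genes. *Cxcr5* was between 6.82 and 31.2 CPM in the *Id2* cells and between 122 and 209.8 CPM in the *Id3* cells, and *Bcl6* between 9.22 and 25.5 CPM against 41.5 to 106 CPM. *Il7r* ran the other way, with 110.4 to 241 CPM in the *Id2* cells and 12.1 to 61.9 CPM in the *Id3* cells, as did *Gata3*, the Th2 master regulator, with 231 to 418 CPM against 88.3 to 142 CPM. *Ahr* was between 32.4 and 47.9 CPM in the *Id2* cells and between 5.27 and 12.5 CPM in the *Id3* cells. Over all 7790 genes whose mean reached 10 CPM, 14.8% were higher and 24% lower in the *Id2* cells in all 6 samples. Of 26 other HLH factors at this level, 3 were higher and 4 lower in every sample, of 10 TGF beta, BMP and EGR genes 0 were higher and 4 lower, and of 4 genes linked to ASCL2 1 was higher and 1 lower. Of 7 E protein partners 1 was higher and 4 lower, and the 7 genes linked to E and ID proteins gave the same counts.

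**Figure D3:**
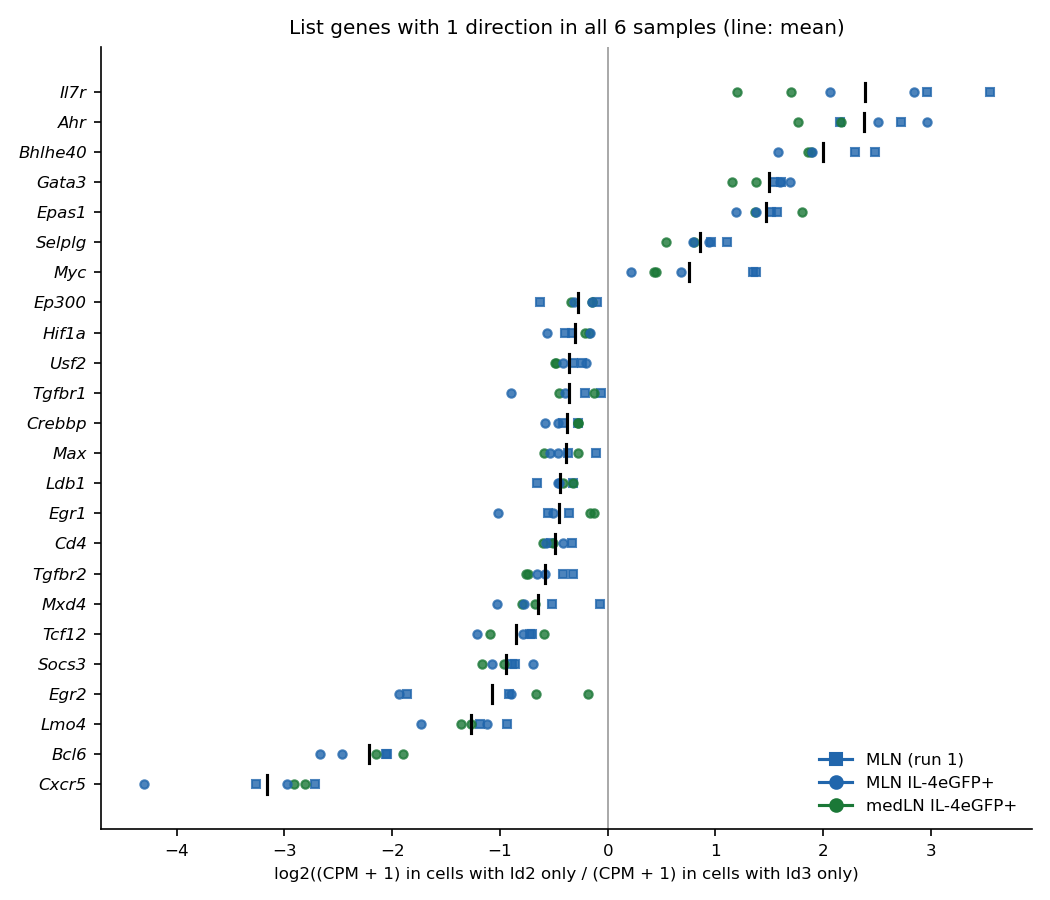
Log2 ratio of CPM plus 1 in cells with *Id2* UMIs only over cells with *Id3* UMIs only, for the 24 listed genes of at least 10 CPM that had 1 direction in all 6 IL-4eGFP+ lymph node samples; points are samples and black lines are means. *Il7r*, *Ahr* and *Bhlhe40* lie furthest to the right and *Cxcr5* and *Bcl6* furthest to the left.

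Cells with Tfh transcripts were separated next: in each IL-4eGFP+ sample of the second run, cells with a UMI of *Il21* or *Bcl6*, between 419 and 482 cells, were set against the remaining 1510 to 1639 cells, with the sample as a block. The 4 samples are medLN and MLN of 2 mice, so the errors and p-values of this split rest on 2 mice. *Ascl2* was concentrated in the cells with *Il21* or *Bcl6*. It had 61, 74, 42 and 46 UMIs there, or 31.4, 35.5, 19.6 and 19.2 CPM, and 10, 26, 19 and 17 UMIs in the remaining cells, or 1.34, 3.55, 2.72 and 2.09 CPM, so that the difference on the log2 scale was 3.39 ± 0.21 (edgeR adjusted p = 1.73e-11). *Id2* was lower in the same cells, at 137, 100.2, 69.8 and 76.6 CPM against 293, 263, 195 and 188 CPM (-1.34 ± 0.06, adjusted p = 1.66e-13). *Id3* was higher, at 210, 219, 406 and 285 CPM against 177, 166, 287 and 223 CPM (0.34 ± 0.05, adjusted p = 1.45e-05). Each of these 3 genes kept its direction in all 4 samples, and the call of *Id3* was lost without the block (0.292).

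*Tcf12* passed in the cells with *Il21* or *Bcl6* at 0.28 ± 0.08 (adjusted p = 0.0173), with a higher level in 3 of 4 samples, and lost its call after thinning (adjusted p = 0.496), under DESeq2 (0.304) and without MLN of either mouse (0.11 and 0.0829) or medLN of mouse 2 (0.124). *Tcf3* and *Bhlhe40* did not pass (-0.12 ± 0.08 and -0.11 ± 0.10). The members that passed were 4 of 6, where 21.1% of all genes did. Of the 4 genes linked to ASCL2, *Cxcr5* (1.72 ± 0.06) and *Cxcr4* (0.83 ± 0.12), both chemokine receptors, were higher, and *Ccr7* (-1.09 ± 0.08) and *Selplg* (-1.05 ± 0.05), a selectin ligand, were lower. Lung against MLN differed in part: *Ascl2* and *Cxcr5* were lower in lung and *Ccr7* and *Selplg* higher, but *Cxcr4* was higher in lung too. *Il7r* was lower (-1.70 ± 0.14), as were *Gata3* (-0.82 ± 0.08) and *Smad7* (-2.06 ± 0.23, and -2.79 after thinning), and *Hif1a* was higher (0.96 ± 0.06). *Bcl6* is in the list of genes linked to E and ID proteins and defined the split, so its own change is not counted as a result.

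Cycling cells, those with a UMI of the proliferation genes *Mki67* or *Top2a*, were compared with the rest in all 8 IL-4eGFP+ samples. *Id3* was lower in cycling cells of all 6 lymph node samples. Its levels there were 224, 238, 71.6, 91.0, 159 and 118 CPM against 393, 397, 271, 244, 411 and 332 CPM in the remaining cells, given for MLN of the first run, medLN and MLN of the second, each as mouse 1 and 2. In lung, *Id3* was at 16.4 and 14.0 CPM against 6.62 and 16.1 CPM. Over all samples the log2 fold change was -1.09 ± 0.19 (adjusted p = 0.000242). *Id2* did not pass (0.06 ± 0.06, adjusted p = 0.455), with 197 against 181 CPM and 268 against 232 CPM in MLN of the first run, and it passed without lung of mouse 2 (0.15, adjusted p = 0.0354).

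*Ascl2* was lower in cycling cells over all samples (-1.38 ± 0.22, adjusted p = 0.00012). It had 7 to 19 UMIs in the cycling cells and 42 to 102 UMIs in the others of the 6 lymph node samples. The cycling cells were fewer, so these counts do not give the size of the fall. In MLN of mouse 2 of the first run the levels were close, at 11.99 against 12.18 CPM (log2 ratio of CPM plus 1 of -0.021). In the other lymph node samples this ratio was between -1.74 and -1.01. Over all samples, *Tcf12* was lower by a smaller amount than *Ascl2* (-0.32 ± 0.10, adjusted p = 0.0134). *Tcf3* was higher (0.21 ± 0.06, adjusted p = 0.00763), and neither of these 2 calls held after thinning (adjusted p = 0.46 and 0.281). Without the block the calls of *Id3*, *Ascl2*, *Tcf12* and *Tcf3* were lost (adjusted p = 0.23, 0.152, 0.172 and 0.235). *Bhlhe40* did not pass over all samples (0.25 ± 0.12, adjusted p = 0.085) but did without lung of mouse 1 (0.40, adjusted p = 0.01) or mouse 2 (0.36, adjusted p = 0.0369), and without the filter on low counts (0.26, adjusted p = 0.0402): it was at 359.5 and 291 CPM in cycling lung cells against 432 and 329.6 CPM in the others, and higher in the cycling cells of all 6 lymph node samples. A test of the difference between lung and nodes, added after seeing the data, gave -0.73 ± 0.16 for *Bhlhe40* (adjusted p = 0.0369), where 1.56% of all genes passed, and 2.04 ± 0.49 for *Id3*, which did not pass (adjusted p = 0.0517). Cycling cells were deeper, with medians of 6941 to 8727.5 UMIs against 2911 to 6505. That 4 of 6 members passed is near the 63.2% of all genes that did. All 7 tested genes linked to E and ID proteins were lower in cycling cells, among them *Socs3*, a cytokine signaling inhibitor (-1.37 ± 0.11), *Bcl6* (-1.28 ± 0.12) and *Cxcr5* (-1.14 ± 0.15, lost without the block with an adjusted p of 0.328), and of 28 other HLH factors 17 were lower and 2 higher, the S phase-linked MAX partner *Mxd3* (6.70 ± 0.16) and *Tfap4* (0.56 ± 0.10).

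**Figure D4:**
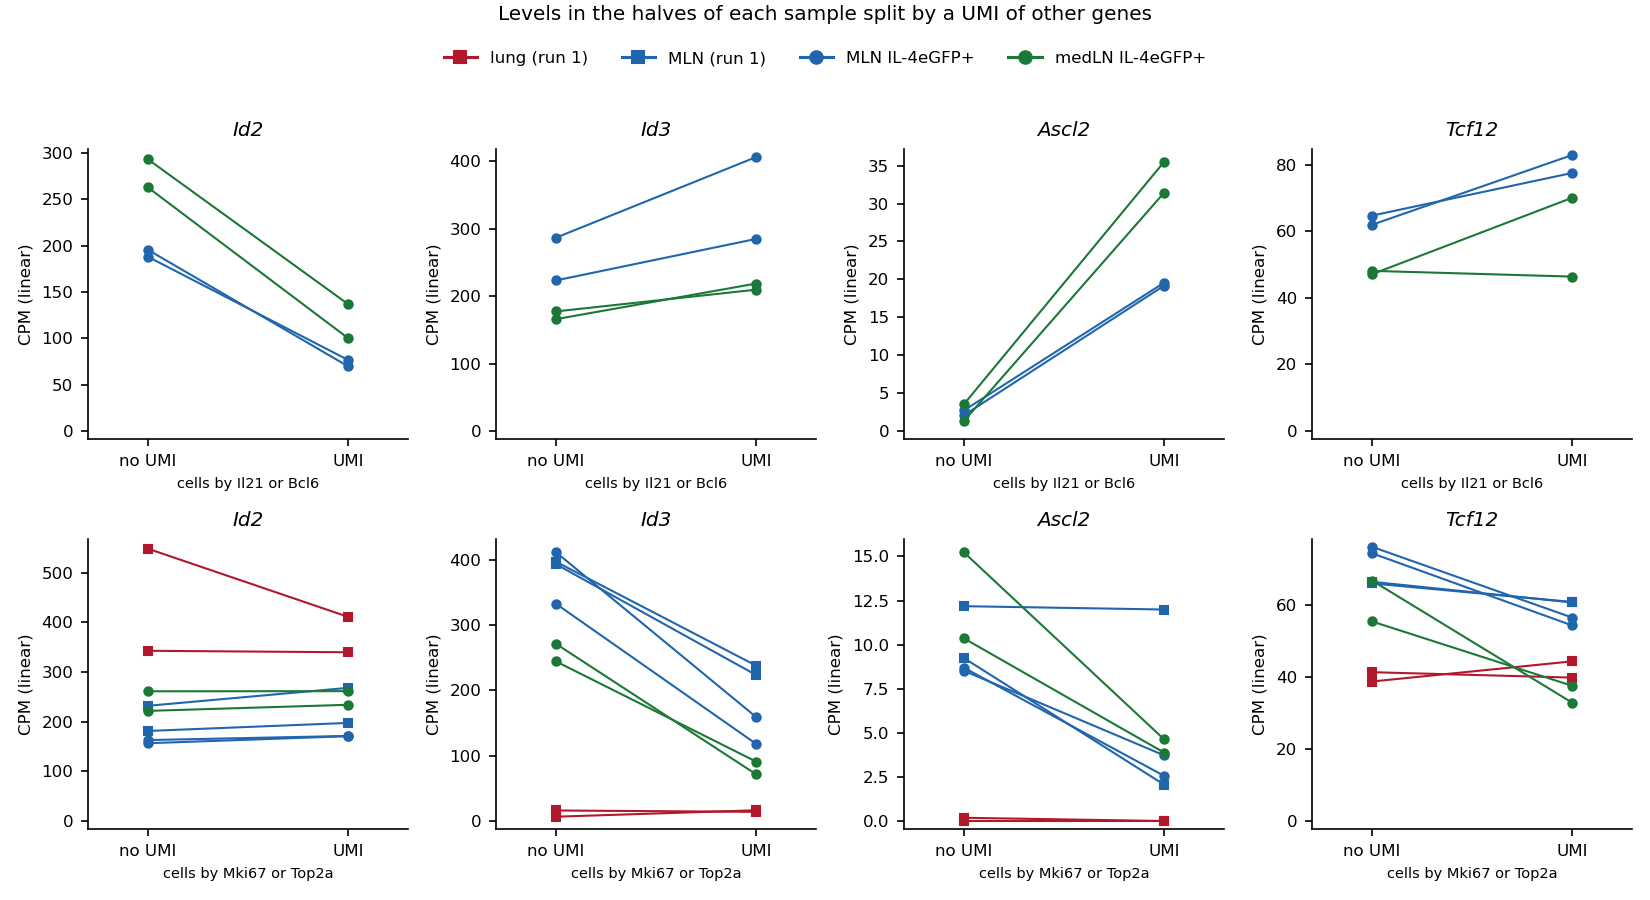
CPM on linear axes of *Id2*, *Id3*, *Ascl2* and *Tcf12* in the cells of each sample without and with a UMI of *Il21* or *Bcl6* (top, 4 samples) and of *Mki67* or *Top2a* (bottom, 8 samples); lines join the values of a sample. In cells with *Il21* or *Bcl6* all 4 lines fall for *Id2* and rise for *Ascl2* and *Id3*; in cycling cells *Id3* falls in the 6 lymph node samples.

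IL-4eGFP- cells with a UMI of *Foxp3*, the Treg lineage factor, numbered 189 to 257 a sample. Both *Id3* and *Bhlhe40* were higher in them in all 4 samples, which come from 2 mice and were fitted as separate blocks. *Id3* was at 250.2, 204, 223 and 159.9 CPM against 108, 105, 131 and 97.1 CPM in the remaining cells (0.78 ± 0.09, adjusted p = 1.03e-05). *Bhlhe40* was at 23.5, 27.2, 19.3 and 13.6 CPM, from 11 to 28 UMIs a sample, against 5.34, 5.73, 3.41 and 3.42 CPM (2.07 ± 0.24, adjusted p = 1.17e-05, and 1.31 after thinning, adjusted p = 0.042). *Id2* was at 25.7, 36.0, 29.8 and 17.4 CPM against 35.8, 37.3, 29.7 and 25.2 CPM and did not pass (-0.39 ± 0.15, adjusted p = 0.0785).

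*Tcf3* was lower in the cells with *Foxp3* (-0.32 ± 0.11, adjusted p = 0.0381), a call that was lost after thinning (adjusted p = 0.122), under DESeq2 (0.181) and without medLN of mouse 1 (0.188), medLN of mouse 2 (0.119) or MLN of mouse 2 (0.053). Of 5 members tested 3 passed, where 24.5% of all genes did; *Ascl2*, with 1 UMI in these cells, was not tested. Beside them, *Gata3* was higher (1.32 ± 0.11), as were *Gfi1*, a transcriptional repressor (1.504 ± 0.20), *Epas1* (1.46 ± 0.18) and *Tgfbr1* (1.06 ± 0.14). *Lmo4* (-2.18 ± 0.28), *Sox4* (-2.24 ± 0.26), *Ccr7* (-1.13 ± 0.10) and *Il7r* (-0.90 ± 0.09) were lower.

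In lung, cells with a UMI of the effector cytokine genes *Il5* or *Il13* were set against the rest, 351 against 731 cells in mouse 1 and 88 against 328 in mouse 2. *Bhlhe40* was at 589 and 484 CPM in the cells with these cytokines and at 305 and 260 CPM in the others (0.91 ± 0.08, adjusted p = 5.11e-26). *Id2* was at 440 and 612 CPM against 287 and 465 CPM (0.50 ± 0.08, adjusted p = 2.39e-08), and *Id3* at 5.99 and 9.93 CPM, from 18 and 7 UMIs, against 12.4 and 17.3 CPM (-0.98 ± 0.35, adjusted p = 0.0476). Each gene moved the same way in both mice. Of 5 members tested, 3 passed, where 9.62% of all genes did. With 2 samples the fit leaves a single residual degree of freedom and rests on the spread shared across genes. Under DESeq2, which called 95 genes instead of 892, *Bhlhe40* kept its call and *Id2* (adjusted p = 0.0824) and *Id3* lost theirs. Without the block, which called 47 genes, *Bhlhe40*, *Id2* and *Id3* lost theirs (0.106, 0.541 and 0.371), and *Id3* also did without the filter on low counts (0.0525).

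Cytokine genes linked to BHLHE40 passed as well in the lung cells with *Il5* or *Il13*, *Il10* at 1.04 ± 0.19 and *Csf2* at 0.97 ± 0.25, but both calls were lost after thinning (adjusted p = 0.216 and 0.0684), under DESeq2 (1 for both) and without the block (0.597 and 0.396). The T cell receptor-induced genes *Egr1* (0.86 ± 0.10), *Egr2* (1.24 ± 0.29) and *Egr3* (1.90 ± 0.30) were higher. The call of *Egr2* was lost after thinning (0.496), under DESeq2 (0.734) and without the block (0.485), that of *Egr3* under DESeq2 (0.248) and that of *Egr1* without the block (0.269). *Ccr7* (-3.48 ± 0.19, and -2.33 after thinning) and *Socs3* (-1.59 ± 0.15) were lower, the latter not without the block (0.0778). *Foxo1*, a quiescence factor, passed at -0.85 ± 0.18 but was at -0.32 after thinning (0.856), and its call was also lost under DESeq2 (1) and without the block (0.544).

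**Figure D5:**
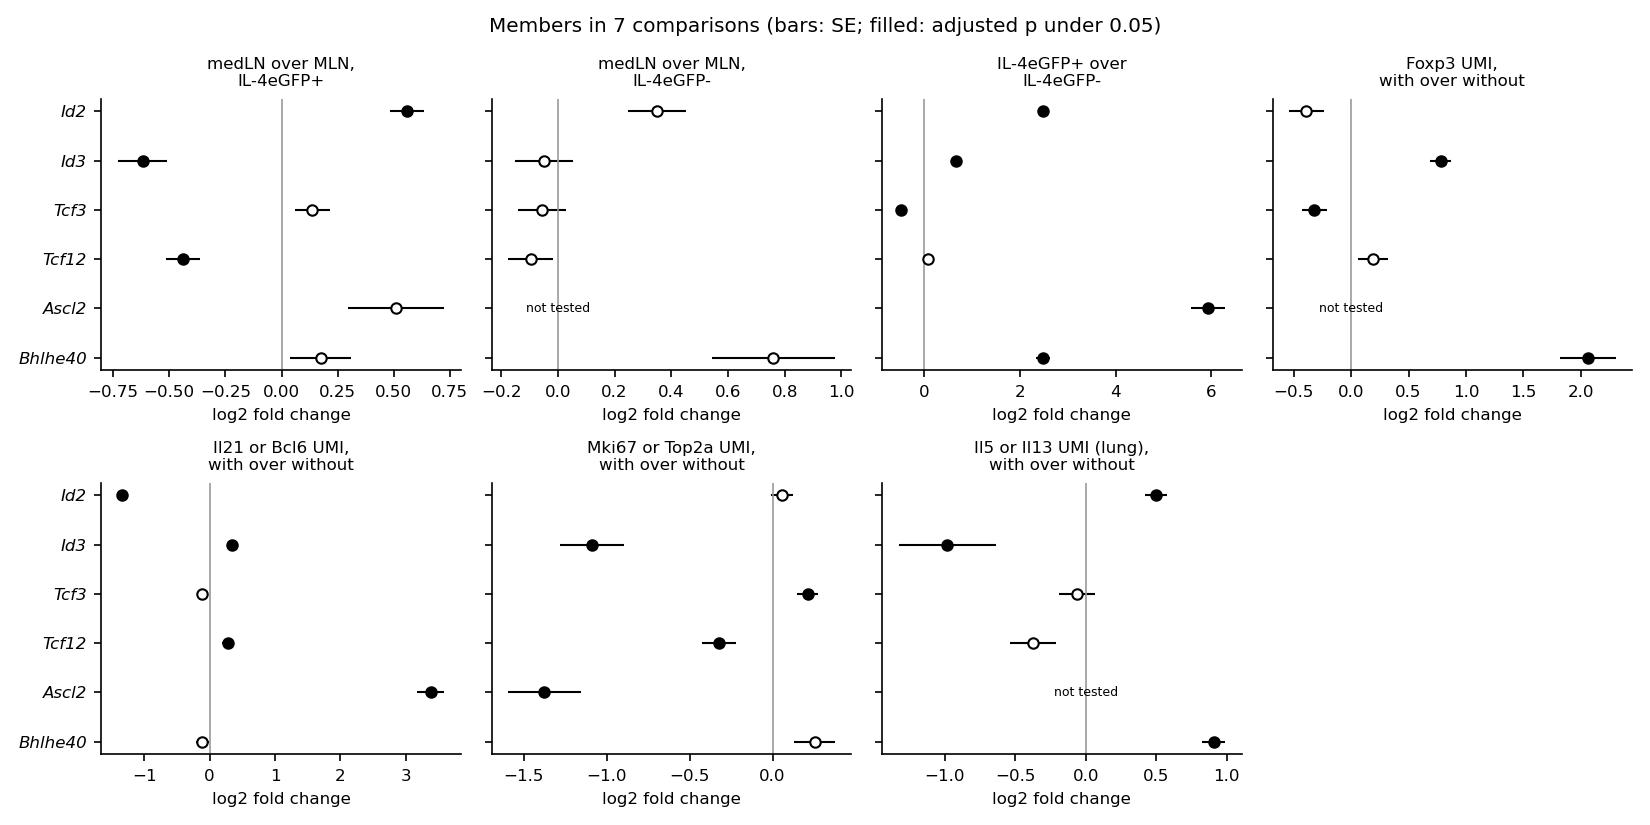
Log2 fold changes with standard errors of the 6 genes in 7 comparisons, with filled points where the edgeR adjusted p was under 0.05 and open points elsewhere; the horizontal axes differ between panels. *Id2* and *Id3* lie on the same side of 0 between the gates, and on opposite sides in the other 6 comparisons, where not every point is filled. The side is not settled for *Id3* in the IL-4eGFP- nodes (-0.05 ± 0.10) or *Id2* in cycling cells (0.06 ± 0.06). Each is smaller than its error and changed sign under an alternative.

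Across the 12 samples, the genes most like each ID gene were found by Pearson correlation of log2(CPM + 1) centered within each run, over the 2961 genes whose mean reached 50 CPM. The genes most like *Id2* were *Ccr4* (r = 0.993), a Th2 chemokine receptor, *Ccng1*, *Stmn1*, *Rtn3* and *Dek*, and the most opposite were the ribosomal protein genes *Rps15a*, *Rpl19* and *Rps10*. The genes most like *Id3* were *Clec2d* (r = 0.992), *Rinl*, *Ephx1*, *Sept6* and *Utrn*, and the most opposite *Cish*, *Tmem64* and *Btg2*. Between *Id2* and *Id3* r was -0.00398. This value pools unlike patterns. The log2 fold changes of *Id2* and *Id3* were 1.11 and -4.75 for lung over MLN, and 2.49 and 0.68 for IL-4eGFP+ over IL-4eGFP- cells. An r near 0 here therefore does not show that the genes varied independently. The points share libraries, mice and gates, and these correlations are descriptions.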

How the data were processed

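CD4 T cells of 4 infected mice were profiled with the 10x Chromium 5′ kit. Per the labels, the authors made UMI count matrices with Cell Ranger 2.1.1 or 3.0.1 (lung and MLN, from 2 sequencing runs combined) and 6.1.2 (nodes), with the builds mm10 and GRCm38 named. The deposited matrices hold whole UMI counts per gene and cell, and the deposited T cell receptor tables hold clonotypes.

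Kept cells had more than 500 genes and 500 UMIs, a mitochondrial share below 7% and a novelty score (log genes per log UMIs) above 0.8, and in lung and MLN a full receptor (1224 cells lacked one). Node cells were assigned by Seurat 5.3.0 HTODemux, leaving out 1280 and 1256 hashtag doublets and 70 and 52 unlabelled cells of the IL-4eGFP- and IL-4eGFP+ libraries. No doublet caller was run on lung and MLN, where 286 cells with extra receptor chains were left out as an alternative. UMIs outside 268 T cell receptor genes were summed per sample, or per side of a split, and tested with the edgeR 4.0.16 quasi-likelihood test (TMM, Benjamini-Hochberg over all genes, threshold 0.05), under R 4.3.3. Splits had the sample as a block. The gate comparison had the organ as a covariate, and its interaction test had organ, gate and their interaction. The comparisons between organs had no block or covariate. Every group is 2 mice.

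Same-numbered samples come from the same mouse, so the numbers pair the samples: deviations from the group means correlated with 0.0377 (lung and MLN), 0.235 (nodes, IL-4eGFP+), 0.117 (nodes, IL-4eGFP-), and 0.155 and 0.18 (between gates). Alternatives were DESeq2 1.42.0, its size factors, no filter on low counts, thinning to 2000 UMIs, the block, other cell sets and leaving out each sample. Intervals are exact binomial or Poisson at 95% and cover counting error only. The genes and lists were chosen with earlier results of these data known. Of each list, up to 3 genes per direction with a mean of at least 10 CPM were named, by fold among those that passed. Libraries shared few barcodes, at most 155 between the gates. One planned split of the cells is not reported here.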

Additional observations from a re-analysis of the deposited data

Results flagged for a closer look

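Among 30 sets of values checked for a sample apart from the rest, 4 had one, where chance gives about 1 in 20. *Bhlhe40* was at 31.8 CPM in IL-4eGFP+ MLN of mouse 1, below the other 3 IL-4eGFP+ samples of that run. *Ascl2* was at 0 CPM in IL-4eGFP- MLN of mouse 2, where the other 3 samples had 1 UMI each, and its log2 ratio of cells with *Foxp3* over the rest was 1.05 in medLN of mouse 1, from 1 UMI. *Id2* had a log2 ratio of cycling over other cells of -0.41 in lung of mouse 2, the lowest of the 8 samples.

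In 1 case the change within a split differed between lung and the lymph nodes by the added interaction test: *Bhlhe40* in cycling cells differed by -0.73 (log2 fold change -0.25 in lung, 0.54 in nodes). Lung samples come from the first run only, and the nodes are from both runs, so run and organ are partly confounded; this was not tested.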

How the results depend on the processing

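Of 412 member results under an alternative, leaving out lung against MLN, where members have no test, 358 kept their direction and side of the threshold, 36 lost the call, 8 gained a call and 10 changed sign. Of 22 member calls, 9 held in every alternative run and 13 in every one but the fit without the block. Counts of genes passing moved by over 1.5 times as follows: lung against MLN from 3284 to 2072 thinned, 1687 by DESeq2 and 1907 to 3678 leaving out a sample; nodes, IL-4eGFP+, from 144 to 47 without the filter and 13 to 191 leaving out a sample; nodes, IL-4eGFP-, from 19 to 8 thinned, 2 without the filter, 65 with the block and 98 to 194 leaving out a sample; the gate by organ from 18 to 81 with the block; *Foxp3* from 2371 to 1450 thinned; *Il21* or *Bcl6* from 2139 to 972 thinned, 882 by DESeq2, 1301 without block and 1398 to 1980 leaving out a sample; cycling from 6217 to 2309 thinned and 3361 without block; *Il5* or *Il13* from 892 to 239 thinned, 95 by DESeq2 and 47 without block. The lung minus MLN share of *Id2* UMIs went from 59.9 to 64.1 percentage points when thinned. Changed signs (log2): *Tcf3*, lung against MLN thinned, -0.0082; *Bhlhe40*, nodes IL-4eGFP+, -0.031 thinned and -0.037 (without MLN 1) to 0.43 leaving out a sample; nodes IL-4eGFP-, *Id3* -0.23 to 0.16 (without MLN 1) and *Tcf3* -0.13 to 0.024 (without MLN 2, and 0.013 without medLN 2) leaving out a sample; *Tcf12* between gates, -0.074 in medLN alone; with *Il21* or *Bcl6*, *Bhlhe40* -0.21 to 0.0011 (without MLN 1) leaving out a sample and *Smad3* 0.10 thinned; cycling, *Id2* -0.051 thinned and -0.012 without block, and *Bhlhe40* -0.084 without block. The cause was not tested; thinning and leaving out a sample use fewer UMIs or samples. The mouse block changed no other call between groups. Leaving out a sample could not be run for *Il5* or *Il13*, since no residual degrees of freedom remain. *Ascl2*, with 0 to 1 UMI in lung and IL-4eGFP- samples, is limited by depth.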
